A study of Mus musculus with 23 samples.

Results

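The values below follow 10 neutrophil granule genes, S100a8, S100a9, Ltf, Ngp, Camp, Mpo, Elane, Chil3, Lcn2 and Mmp9, through a mouse RNA sequencing series. They were taken by symbol from a table of counts for 22488 gene symbols, and all 10 were found. The series tested EASY-RNASeq, in which RNA is primed with oligo-dT, copied into double-stranded cDNA and cut by the transposase Tn5, on falling amounts of material. Of its 23 libraries, 12 came from CD3+ T cells of mouse spleen, with 3 each from 100, 500, 1000 and 10000 cells. The other 11 came from RNA, with 2 at 0.1 ng and 3 each at 0.5, 1 and 5 ng. Both materials were labelled as strain C57 at 6 to 18 weeks of age, and no genotype change or treatment was given for either. The series design gives mouse spleen as the source of the RNA, whereas the sample labels name RAW 264.7, a macrophage cell line. How the T cells were isolated, and whether replicates came from separate animals or from separate dilutions of 1 pool, was not given in the labels, so that p-values here cover the spread between libraries, which may be technical.

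Library totals ran from 1737067 to 7908638 counts, and even numbers made up 57.9% to 70.7% of the counts above 0 in each library, so that counts are not independent molecules and intervals here cover counting error only. Levels are given as CPM, the usual scaling of a count by the total of its library. The 10 T cell markers summed to 4878 ± 126 CPM in the libraries from 10000 T cells and 1354 ± 47.0 CPM in those from 5 ng RNA (SD, n = 3 each). In the same libraries the 8 B cell markers summed to 336 ± 12.6 CPM in 10000 T cells and 6418 ± 28.5 CPM in 5 ng RNA, and the 8 erythroid markers to 54.1 ± 3.82 CPM in 10000 T cells and 4091 ± 11.6 CPM in 5 ng RNA. No T cell, B cell, erythroid or macrophage marker was at 0 in all libraries of either group. The RNA therefore held transcripts of several blood lineages, which goes against a label of 1 macrophage line, and it is called RNA below, with no cell source. Replicate 3 of the 100-cell group stood apart from the other 11 T cell libraries, and results of the main test that rest on it are given with and without it. The alternative tests that hold it, and the list of genes drawn from all 23 libraries, were run only with it.

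Neutrophils are short-lived phagocytes that mature in bone marrow and, in mice, also in the spleen. Their granules form in an order, and each granule is filled mainly with the proteins made at that stage. Azurophil granules, with myeloperoxidase (Mpo) and neutrophil elastase (Elane), form first, in promyelocytes. Specific granules, with lactoferrin (Ltf), the cathelicidin precursor (Camp), lipocalin 2 (Lcn2) and, in mice, neutrophilic granule protein (Ngp), follow in myelocytes, and gelatinase granules, named for Mmp9, come last. S100a8 and S100a9 form calprotectin, a calcium- and metal-binding dimer that lies mostly in the cytosol, and Chil3 (Ym1) is a secreted chitinase-like lectin of mouse myeloid cells.

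**Figure D1:**
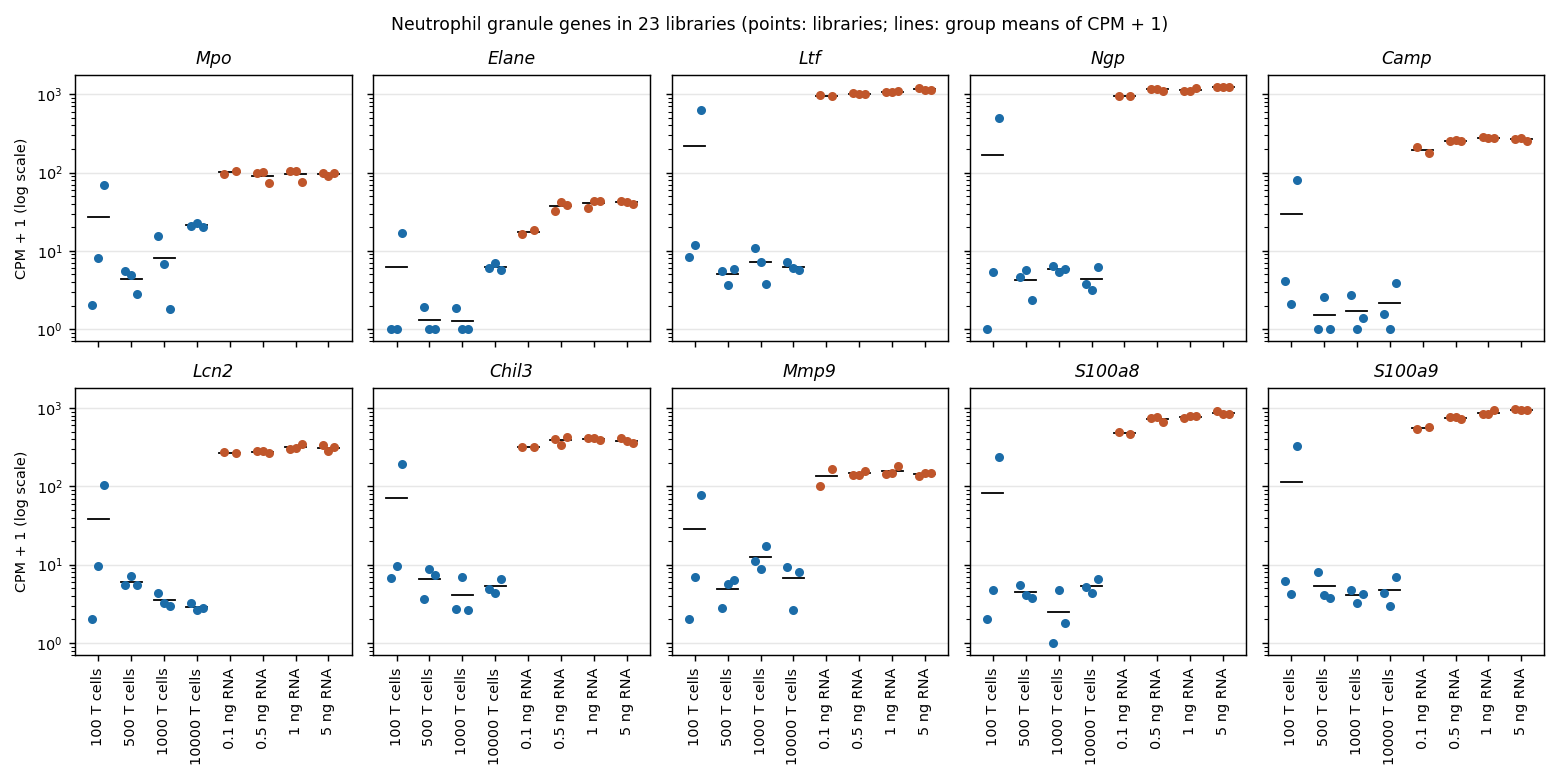
CPM + 1 on a log scale for each of the 10 genes, with 1 point per library and a line at the mean of each group, for 12 T cell libraries (blue) and 11 RNA libraries (orange). All RNA libraries lie above the libraries from 500, 1000 and 10000 T cells for each gene, and replicate 3 of 100 T cells lies far above the other T cell libraries.

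Summed over the 10 genes, the level was 55.4 ± 7.95 CPM in 10000 T cells and 5472 ± 147 CPM in 5 ng RNA (SD, n = 3 each). Across all inputs the sum ran from 25.5 to 62.6 CPM in the 11 T cell libraries other than replicate 3 of 100 cells, and from 3967 to 5640.1 CPM in the 11 RNA libraries. Between 10000 T cells and 5 ng RNA, 10 of the 10 genes were called lower in T cells and 0 higher, where 27.3% of 14425 genes tested were called lower and 28.7% higher. All 10 passed the filter on low counts, but Camp, Lcn2 and Mmp9 reached its level of 1.91 CPM in every library of 5 ng RNA and in only 1, 1 and 2 libraries of 10000 T cells, so that these 3 passed through the group where they are high. The median log2 fold change was -7.60 over the 10 genes and 0.03 over all genes tested (edgeR's quasi-likelihood test, Benjamini-Hochberg adjustment over all genes tested, threshold 0.05). With no filter on low counts, 10 of the 10 were called lower as well, where 10062 genes were called in either direction. The groups did not overlap for 10 of the 10 genes, Camp, Lcn2 and Mmp9 among them, each lower in T cells, where 25.1% of the genes tested were lower with no overlap. In bulk RNA, fewer cells of a type and less RNA per cell cannot be told apart, and the material of the 2 groups differs in cell content throughout, as the markers above show. The materials also differed in 4 Y-linked genes, which summed to 1.39 ± 1.28 CPM in 10000 T cells and 341 ± 24.5 CPM in 5 ng RNA (SD, n = 3 each). The fold changes were not alike among the 10 members, and the azurophil pair stood nearest to 0.

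The azurophil granule genes were the members with the smallest differences between 10000 T cells and 5 ng RNA. Mpo, the peroxidase that makes hypochlorous acid, had 20.1, 21.8 and 19.1 CPM in 10000 T cells, against 97.8, 90.6 and 98.2 CPM in 5 ng RNA. Its log2 fold change was -2.34 (SE 0.135; edgeR's quasi-likelihood test, adjusted p = 1.85e-23). Elane, a serine protease of the same granule, had 5.02, 6.06 and 4.70 CPM in 10000 T cells, against 42.2, 41.1 and 38.3 CPM in 5 ng RNA. Its log2 fold change was -3.05 (SE 0.225; edgeR's quasi-likelihood test, adjusted p = 1.70e-18). Both genes were well above the level of 3 counts in each library of 10000 T cells, with 65 to 79 counts of Mpo and 16 to 22 counts of Elane. At lower inputs the order was another, as Elane had means of 0.298 CPM in 500 T cells and 36.7 CPM in 0.5 ng RNA, where Mmp9 had 3.95 CPM in 500 T cells and 146 CPM in 0.5 ng RNA.

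Specific granule genes differed far more. Ngp, whose product is related to the cystatins, had 2.79, 2.21 and 5.29 CPM in 10000 T cells, against 1238, 1247 and 1252 CPM in 5 ng RNA. Its log2 fold change of -8.62 (SE 0.0960) was the lowest of the 10. Ltf, the iron-binding lactoferrin, had 6.13, 4.96 and 4.70 CPM in 10000 T cells, against 1221, 1125 and 1139.8 CPM in 5 ng RNA, a log2 fold change of -7.89 (SE 0.0879). These 2 genes held more counts than any other member in every 5 ng library, and in 10000 T cells both lay below Mpo.

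Camp, the precursor of the mouse cathelicidin peptide, had 0.558, 0 and 2.94 CPM in 10000 T cells, where the library at 0 would reach 0.827 CPM with 3 counts, against 268, 272 and 254 CPM in 5 ng RNA. Lcn2, which binds bacterial siderophores, had 2.23, 1.65 and 1.76 CPM in 10000 T cells, against 333, 282 and 316 CPM in 5 ng RNA. The log2 fold changes were -7.95 (SE 0.187) for Camp and -7.46 (SE 0.149) for Lcn2, so all 4 specific granule genes lay between -8.62 and -7.46.

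Among the remaining members, Mmp9, gelatinase B, had 8.37, 1.65 and 7.05 CPM in 10000 T cells, against 135, 149 and 146 CPM in 5 ng RNA, a log2 fold change of -4.77 (SE 0.175). Its T cell libraries spread more than its RNA libraries, with replicate 2 the low one. Chil3 had 3.90, 3.31 and 5.58 CPM in 10000 T cells, against 410.1, 383 and 357 CPM in 5 ng RNA, a log2 fold change of -6.60 (SE 0.122). Chil3 has near-identical relatives, so reads may be split between them. Chil4, its closest relative, had 7.81, 3.31 and 3.23 CPM in 10000 T cells and a mean of 0.222 CPM in 5 ng RNA. Chil4 passed the filter level of 1.91 CPM through the T cell libraries alone, so its call as higher there is not counted. How far reads were split between the 2 genes was not tested, so the Chil3 value in T cells is uncertain.

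The calprotectin subunits moved together. S100a8 had 4.18, 3.31 and 5.58 CPM in 10000 T cells, against 925, 838 and 849.6 CPM in 5 ng RNA. S100a9 had 3.35, 1.93 and 5.88 CPM in 10000 T cells, against 969.8, 941 and 957 CPM in 5 ng RNA. Their log2 fold changes were -7.75 (SE 0.0986) and -8.12 (SE 0.103), and the count of S100a9 over that of S100a8 was 0.812 ± 0.235 in 10000 T cells and 1.10 ± 0.0446 in 5 ng RNA (SD, n = 3 each).

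**Figure D2:**
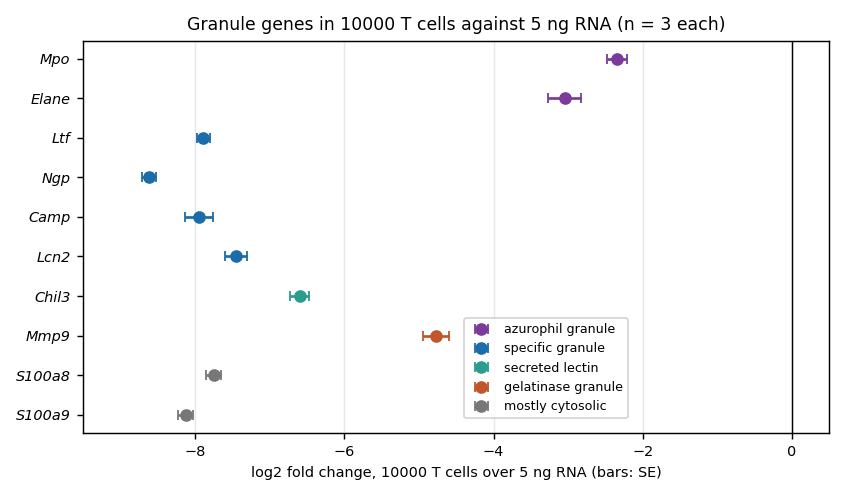
Log2 fold change of each gene in 10000 T cells over 5 ng RNA, with bars of 1 SE from edgeR's quasi-likelihood fit (n = 3 each) and colours for the granule or location of the product. Mpo at -2.34 and Elane at -3.05 lie nearest to 0, and the specific granule genes lie between -8.62 and -7.46.

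The calls held under every scaling, filter and test tried and with each replicate left out in turn. With library sizes alone as the scaling, the fold changes of the members lay 0.12 higher on the log2 scale, and none changed direction. Camp moved the most when a library was left out, to -9.93 without replicate 3 of 10000 T cells.

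Promoter sequence is shown for the azurophil genes Mpo and Elane and for the specific granule genes Ngp and Ltf, because the azurophil pair had the smallest fold changes between 10000 T cells and 5 ng RNA and the other pair had large ones at the highest levels. The letters come from RefSeq on GRCm38.p6, run 5′ to 3′ on the plus strand, on which all 4 genes lie, and end at the last base before the start of the gene, so that none lies in a transcript of RefSeq or of GENCODE release M21, which leaves 47 bases for Mpo. Capitals mark matches, on either strand, to the C/EBP core TTGCNNAA and to the PU.1 core GAGGAA, motifs of factors used in granulocyte development. The stretches are chr11:87793534-87793580 for Mpo, chr10:79886097-79886246 for Elane, chr9:110419597-110419746 for Ngp and chr9:111019121-111019270 for Ltf.
Mpo: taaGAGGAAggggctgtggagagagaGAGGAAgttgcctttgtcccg
Elane: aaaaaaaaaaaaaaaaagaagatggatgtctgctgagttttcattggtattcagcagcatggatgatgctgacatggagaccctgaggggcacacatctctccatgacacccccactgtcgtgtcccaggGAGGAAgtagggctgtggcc
Ngp: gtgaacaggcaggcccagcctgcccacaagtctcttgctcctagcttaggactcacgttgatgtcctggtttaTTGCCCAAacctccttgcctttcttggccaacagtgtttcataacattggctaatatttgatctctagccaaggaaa
Ltf: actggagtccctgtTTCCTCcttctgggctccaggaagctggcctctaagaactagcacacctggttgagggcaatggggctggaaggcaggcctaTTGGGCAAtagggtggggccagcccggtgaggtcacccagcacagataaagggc
In the stretches shown, GAGGAA occurs in Mpo, Elane and, on the minus strand, in Ltf, and TTGCNNAA occurs in Ngp and Ltf. Over the 250 bases before the RefSeq start, 4 of 9 members with a RefSeq entry (Lcn2, S100a9, Ngp and Ltf) held TTGCNNAA, against 9.56% of 32851 promoters of the same length. GAGGAA was found in 5 of 9 (Lcn2, S100a8, Ltf, Elane and Mpo), against 23.3% of those promoters. The motifs do not overlap in the letters shown, and these matches describe letters and not binding.

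In GENCODE release M21 on GRCm38, Elane is a gene of chromosome 10 (79886247 to 79888215, plus strand) and Mpo one of chromosome 11 (87793581 to 87804413, plus strand). Camp (109847379 to 109849617, minus strand), Ngp (110419747 to 110423012, plus strand) and Ltf (111019271 to 111042767, plus strand) lie near each other on chromosome 9. S100a8 (90668978 to 90670035, plus strand) and S100a9 (90692632 to 90695721, minus strand) are neighbours on chromosome 3, which also carries Chil3 (106147554 to 106167564, minus strand). Lcn2 (32384633 to 32388252, minus strand) and Mmp9 (164940780 to 164955850, plus strand) are on chromosome 2.

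Levels of different genes were compared per length of exon. At 5 ng RNA, S100a9 was the highest at 1831 ± 27.5 CPM per kilobase of exon (SD, n = 3), followed by S100a8 at 1255 ± 68.7 and Ngp at 1019 ± 6.10. The ranges of these 3 genes did not overlap. Camp at 349 ± 12.7 and Ltf at 337 ± 15.0 overlapped each other on this scale, and Chil3 at 235 ± 16.1 and Lcn2 at 118 ± 9.86 stood apart from their neighbours. Elane at 41.2 ± 2.05 and Mmp9 at 40.5 ± 2.00 overlapped, and Mpo was last at 27.9 ± 1.25. In 10000 T cells Mpo stood at 5.93 ± 0.395 and Elane at 5.35 ± 0.724 on the same scale, close to S100a9 at 7.12 ± 3.83 and S100a8 at 6.28 ± 1.66, and above Ngp at 2.81 ± 1.34 and Ltf at 1.53 ± 0.221. The azurophil pair, near the foot of the order in RNA, thus lay within the range of the calprotectin genes in 10000 T cells. It did not in 500 T cells, where Mpo at 0.988 ± 0.409 and Elane at 0.303 ± 0.524 lay below every library of S100a9 (8.27 ± 4.71) and S100a8 (4.93 ± 1.33).

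As a share of all counts on the 10 genes, Mpo and Elane together took 47.3 ± 10.99% in 10000 T cells and 2.49 ± 0.0358% in 5 ng RNA (SD, n = 3 each). In 10000 T cells the share ran from 38.03% to 59.4%, and over all 11 RNA libraries from 2.21% to 3.06%. At the lower cell numbers it was 10.7 ± 4.88% in 500 T cells and 15.9 ± 13.7% in 1000 T cells. In replicate 3 of 100 T cells the share was 3.796%, above the RNA range: Mpo took 3.09% (exact 95% interval 2.73 to 3.49%) and Elane 0.702% (0.535 to 0.905%) of 8403 counts on the members. The shares of single genes varied less among the 11 RNA libraries than among the 11 T cell libraries other than replicate 3 of 100 cells, which held 49 to 213 counts on the members. In RNA the share of Ltf ran from 20.6% to 24.5%, that of S100a8 from 11.7% to 16.4%, that of Mmp9 from 2.40% to 4.18% and that of Elane from 0.385% to 0.840%, with S100a8 and Elane lowest at 0.1 ng. In those T cell libraries the share of Ltf ran from 7.22% to 28.6% and that of Mmp9 from 3.53% to 50.0%. Replicate 3 of 100 T cells lay inside the RNA range for 5 genes, above it for Ltf (28.6%) and Mpo, and below it for S100a8 (10.6%), Camp (3.59%) and Lcn2 (4.56%).

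**Figure D3:**
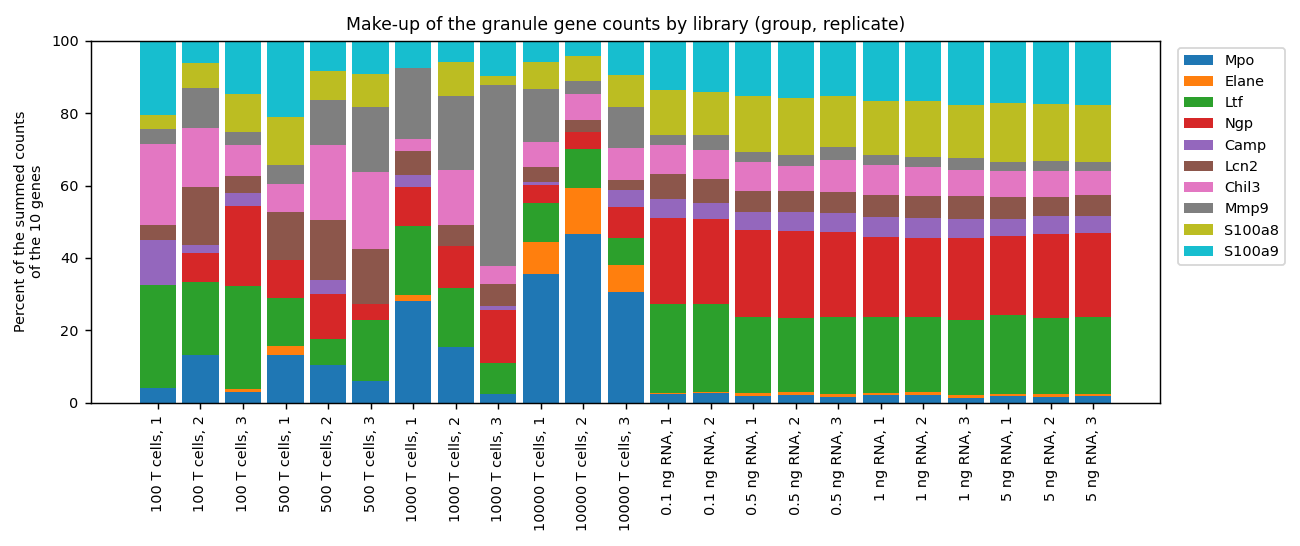
Percent of the summed counts of the 10 genes that each gene takes, with 1 bar per library. The RNA bars hold 2.21 to 3.06% on Mpo and Elane together, the bars of 10000 T cells hold 38.03 to 59.4% on them, and the bar of replicate 3 of 100 T cells holds 3.796%.

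Other genes of the neutrophil programme were lower in T cells as well. Of 19 other granule and secretory genes, 18 were tested between 10000 T cells and 5 ng RNA and 18 were called lower, with a median log2 fold change of -3.42. Genes of this list and of those below may pass the filter on low counts through 5 ng RNA alone, and such genes have to be lower in T cells. How many did so was not counted, so the counts of calls by list are descriptions. Lyz2, the lysozyme shared with macrophages, had 24.0 ± 1.27 CPM in 10000 T cells and 1358 ± 7.08 CPM in 5 ng RNA, and Cybb, the catalytic subunit of the phagocyte NADPH oxidase, had 28.8 ± 5.69 CPM in 10000 T cells and 799 ± 12.3 CPM in 5 ng RNA (SD, n = 3 each). Cyba, its partner subunit, which many leukocytes carry, had the smaller log2 fold change of -1.13 (SE 0.0781), with 105 ± 9.13 CPM in 10000 T cells and 213 ± 10.3 CPM in 5 ng RNA. Prtn3, a protease of azurophil granules that was singled out after its values were seen, had 4.82 ± 1.97 CPM in 10000 T cells and 28.3 ± 1.92 CPM in 5 ng RNA. Ctsg, the azurophil protease cathepsin G, likewise singled out, had 1.14 ± 0.604 CPM in 10000 T cells and 10.7 ± 2.00 CPM in 5 ng RNA.

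Of 20 neutrophil surface and maturation genes, 18 were tested in that comparison, 17 were called lower and 0 higher, with a median of -3.77. Csf3r, the receptor for granulocyte colony-stimulating factor, had 6.52 ± 0.986 CPM in 10000 T cells and 90.3 ± 4.42 CPM in 5 ng RNA, a log2 fold change of -3.90 (SE 0.173). Among 6 granulocyte transcription factors, 5 were called lower and 1 higher. Cebpe, which drives specific granule genes, had 0.186 ± 0.322 CPM in 10000 T cells and 16.7 ± 1.08 CPM in 5 ng RNA, and Spi1, which encodes PU.1, had 5.87 ± 1.29 CPM in 10000 T cells and 119.7 ± 11.7 CPM in 5 ng RNA (SD, n = 3 each). Cebpe passed the filter level of 1.91 CPM through 5 ng RNA alone, so it had to be lower in T cells. Gfi1, a repressor that T cells also use, was the 1 called higher, with 29.0 ± 3.22 CPM in 10000 T cells and 18.8 ± 2.18 CPM in 5 ng RNA (log2 fold change 0.52, SE 0.193; edgeR's quasi-likelihood test, adjusted p = 0.0188). Most markers of other cell types were called lower too: 8 of 8 B cell, 8 of 8 erythroid, 13 of 14 macrophage and monocyte, 5 of 6 eosinophil, 4 of 6 basophil and mast cell, 4 of 6 progenitor and 4 of 4 platelet markers tested were called lower, while 10 of 10 T cell markers were called higher. One progenitor marker was called higher, Myb, with 72.5 ± 4.10 CPM in 10000 T cells and 37.1 ± 2.90 CPM in 5 ng RNA (SD, n = 3 each; log2 fold change 0.85, SE 0.129).

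The low-cell libraries were each compared with the same 3 libraries of 10000 T cells, so these comparisons share their controls. With 100 cells, the summed level of the 10 genes was 25.5, 53.5 and 2234 CPM in replicates 1, 2 and 3, against 56.6, 46.9 and 62.6 CPM in 10000 T cells. The high value belonged to replicate 3 alone. Ltf had 7.28, 10.8 and 638 CPM in 100 T cells, and Ngp had 0, 4.33 and 493 CPM, where 3 counts in the library at 0 would be 1.56 CPM. S100a9 had 5.20, 3.24 and 328 CPM and Mpo had 1.04, 7.03 and 69.1 CPM in 100 T cells, with replicate 3 again the high one. Elane had no count in replicates 1 and 2 and 59 counts, 15.7 CPM, in replicate 3.

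With all 3 replicates, 0 of 9 members tested were called between 100 and 10000 T cells in edgeR's quasi-likelihood test, where 0% of 14099 genes were called in either direction. At an unadjusted p under 0.05 there were 6 members and 1686 genes. DESeq2's Wald test, which gave an adjusted p for 3 members, called 348 genes and among them Lcn2. A single fit over all 8 groups called 836 genes and among them 8 members, all higher, with log2 fold changes between 2.37 (Mmp9, SE 0.668) and 5.59 (Ngp, SE 1.03). That fit and DESeq2's test were not run without replicate 3. Without replicate 3, 0 members and 357 of 15159 genes were called by edgeR's quasi-likelihood test. Mpo stood at a log2 fold change of -2.36 there (SE 0.665, adjusted p = 0.0932 by the same test) and did not pass. Elane was at 0 in both remaining libraries of 100 T cells, so it passed the filter through 10000 T cells alone and had to be lower. It was not called (adjusted p = 0.0743 by the same test), and its fitted value of -6.94 (SE 1.69) depends on the prior count.

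Replicate 3 of 100 T cells was unlike its group in the members and in markers of other cells. Its summed member level was 40.4-fold that of the mean of 10000 T cells, 40.8% of the mean of 5 ng RNA and 56.2% of the mean of 0.1 ng RNA. Each of the 10 genes lay between 27.3% (S100a8) and 72.3% (Mpo) of its mean in 5 ng RNA. The fold over 10000 T cells ranged far more widely, at 144 for Ngp, 3.40 for Mpo and 2.98 for Elane. These genes also had the largest and the 2 smallest differences between 10000 T cells and 5 ng RNA. Both measures share the means of 10000 T cells, so their like order is not a separate result.

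Other markers in that library moved with the members. Its 8 B cell markers summed to 3196 CPM, 49.8% of the mean of 5 ng RNA, its 14 macrophage and monocyte markers to 1010 CPM (50.4%) and its 8 erythroid markers to 1307 CPM (31.9%). Its 4 Y-linked genes summed to 184 CPM, 53.9% of the mean of 5 ng RNA, where the other 11 T cell libraries held 0 to 4.33 CPM and the RNA libraries 287 to 456 CPM. The 10 T cell markers summed to 2801 CPM, 0.574 of the mean of 10000 T cells, and its total of 3760980 counts was about that of the libraries from 10000 T cells, above the 1923669 and 1849181 counts of replicates 1 and 2. What part each of these has in the high granule genes of the library was not tested.

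**Figure D4:**
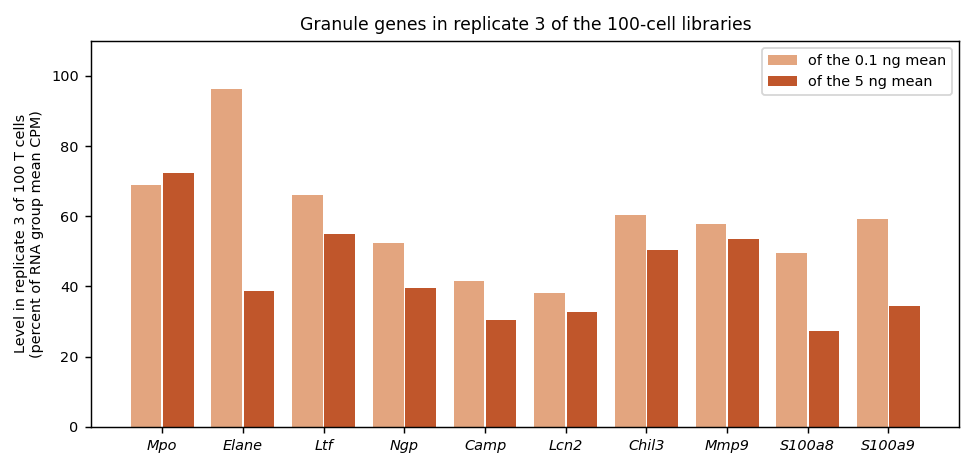
CPM of each gene in replicate 3 of 100 T cells as a percent of its mean in 0.1 ng RNA (light) and 5 ng RNA (dark). All 10 genes lie between 27.3% and 72.3% of the 5 ng mean, and Elane reaches 96.4% of the 0.1 ng mean.

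At 500 and 1000 cells Mpo was lower than at 10000 cells. In 500 against 10000 T cells, 9 members passed the filter on low counts, and Mpo was called lower and 0 members higher, where 2.46% of 13674 genes were called lower. In 1000 against 10000 T cells, 8 members passed, and Mpo was again called lower and 0 members higher, where 2.04% of 13415 genes were called lower. Elane passed the filter through the libraries of 10000 cells alone at both inputs, so its calls are not counted here and it is given by its counts. The median log2 fold change of the members tested was -0.35 in each comparison, against 0.03 and 0.01 over all genes tested. These member medians include Elane and leave out the members under the filter, so the filter has a part in them and they are not read as a shift.

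Mpo had 4.47, 3.88 and 1.80 CPM in 500 T cells and 14.4, 5.89 and 0.799 CPM in 1000 T cells, against 20.1, 21.8 and 19.1 CPM in 10000 T cells. Neither group overlapped with 10000 cells, where 11.6% of the genes tested at 500 cells and 11.4% of those at 1000 cells were lower with no overlap, and replicate 1 of 1000 cells was the nearest to it. The log2 fold change was -2.58 at 500 cells (SE 0.443; edgeR's quasi-likelihood test, adjusted p = 0.00108) and -1.53 at 1000 cells (SE 0.446; adjusted p = 0.0485, by the same test). Mpo reached the level of the filter in 2 of 3 libraries of each low input and in 3 of 3 of 10000 T cells. With no filter, so that 10 of 10 members were tested, it was called as well, at -2.62 for 500 cells (adjusted p = 0.000135, with 602 genes called) and -1.56 for 1000 cells (adjusted p = 0.00648, with 532 genes called) in edgeR's quasi-likelihood test. Elane had 2 counts over the 3 libraries of 500 T cells and 2 counts over those of 1000 T cells, all in replicate 1 of each, against 18, 22 and 16 counts in 10000 T cells. It reached the level of the filter in 0 of 3 libraries of either low input, so that, having passed, it had to differ. Its ratio of CPM in 10000 over 500 T cells was 18.6 with a counting interval of 4.90 to 157, and in 10000 over 1000 T cells 20.0 with an interval of 5.28 to 169. These intervals take each count as independent and pool the libraries of a group, so they may be too narrow.

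The Mpo call at 500 cells stayed with each replicate left out in turn, and was lost in a single fit over all 8 groups (-2.62, adjusted p = 0.195), which called 65 genes. The Mpo call at 1000 cells was lost without replicate 2 or 3 of 1000 T cells, when Mpo stood at -1.43 and -1.01, and without replicate 1, 2 or 3 of 10000 T cells, when it stood at -1.54, -1.47 and -1.57. It was also lost in DESeq2's Wald test (-1.53, adjusted p = 0.344), which called 784 genes, and in the single fit (-1.58), which called 24 genes. Without replicate 1 of 1000 T cells Mpo stood at -2.55 and was called. The other 8 members gave no call at either input. S100a8, S100a9, Ltf, Ngp, Chil3 and Mmp9 were tested at both inputs with adjusted p-values of 0.331 or more in edgeR's quasi-likelihood test. Lcn2 had 4.47, 6.21 and 4.50 CPM in 500 T cells against 2.23, 1.65 and 1.76 CPM in 10000 T cells. It was not called there (log2 fold change 1.40, SE 0.746, adjusted p = 0.360 in edgeR's quasi-likelihood test). It reached the level of the filter in 3 of 3 libraries of 500 T cells and in 0 of 3 of 10000 T cells. Having passed, it could not overlap between the groups. Camp did not pass the filter at either input, and Lcn2 did not at 1000 cells.

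Other cell markers moved between these inputs too. Erythroid markers summed to 159 ± 9.61 CPM in 500 T cells and 206 ± 3.48 CPM in 1000 T cells, against 54.1 ± 3.82 CPM in 10000 T cells (SD, n = 3 each), and 3 and 4 of the 6 tested were called higher. Of 10 other granule and secretory genes tested at 500 cells, 1 was called lower, Lyz2 at a log2 fold change of -1.68 (SE 0.355; edgeR's quasi-likelihood test, adjusted p = 0.00717), and of 11 tested at 1000 cells none was called. Macrophage and monocyte markers had 4 of 12 called lower at 500 cells, and 1 of 13 called higher at 1000 cells. Their part in the Mpo and Elane values was not tested.

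In the diluted RNA, most members were lower at the lowest input. Between 0.1 and 5 ng, 6 of 10 members were called lower and 0 higher, where 6.55% of 13982 genes tested were called lower, and the median log2 fold change was -0.38 over the members and -0.07 over all genes tested. Summed over the members, the level was 3975 ± 12.2 CPM at 0.1 ng (SD, n = 2), 4853 ± 123 at 0.5 ng, 5169 ± 162 at 1 ng and 5472 ± 147 at 5 ng (n = 3 each). The groups did not overlap for 8 of 10 members between 0.1 and 5 ng, each lower at 0.1 ng, where 29.6% of the genes tested were lower with no overlap. All 3 dilutions were set against the same 5 ng libraries.

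S100a8 had 496 and 465 CPM at 0.1 ng, against 925, 838 and 849.6 CPM at 5 ng, and its log2 fold change was -0.90 (SE 0.0720; edgeR's quasi-likelihood test, adjusted p = 0.00635). S100a9, its partner, had 541 and 569 CPM at 0.1 ng, against 969.8, 941 and 957 CPM at 5 ng, and its log2 fold change was -0.83 (SE 0.0592; adjusted p = 0.00595, by edgeR's test). Elane had 15.3 and 17.3 CPM at 0.1 ng, 30 counts in each library, against 42.2, 41.1 and 38.3 CPM at 5 ng, and its log2 fold change was -1.36 (SE 0.261; adjusted p = 0.0332, by edgeR's test). Elane had the lowest log2 fold change of the 10.

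The specific granule genes Camp, Ngp and Ltf had log2 fold changes nearer to 0. Camp had 212 and 175 CPM at 0.1 ng, against 268, 272 and 254 CPM at 5 ng (log2 fold change -0.50, SE 0.111; edgeR's quasi-likelihood test, adjusted p = 0.0447), and was no longer called with DESeq2 size factors (-0.43) or library sizes alone (-0.44) as the scaling. Ngp had 943 and 942 CPM at 0.1 ng, against 1238, 1247 and 1252 CPM at 5 ng (log2 fold change -0.45, SE 0.0471; edgeR's quasi-likelihood test, adjusted p = 0.0136). Ltf had 971 and 959 CPM at 0.1 ng, against 1221, 1125 and 1139.8 CPM at 5 ng (log2 fold change -0.31, SE 0.0568; edgeR's quasi-likelihood test, adjusted p = 0.0308).

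Of the others, Chil3 at -0.30 (SE 0.0874) and Lcn2 at -0.26 (SE 0.0994) did not pass, with adjusted p-values of 0.0726 and 0.134 in edgeR's quasi-likelihood test. Mpo had 95.8 and 105 CPM at 0.1 ng, against 97.8, 90.6 and 98.2 CPM at 5 ng, a log2 fold change of 0.02 (SE 0.135), and Mmp9 stood at -0.15 (SE 0.224). The azurophil genes thus gave different values: Elane was called lower and Mpo overlapped between the inputs. Whether the fold changes of the 2 genes differ was not tested.

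The 4 members with under 1000 bases of exon, S100a9 (522), S100a8 (694), Camp (758) and Elane (984), were all among the 6 called lower at 0.1 ng. The others called were Ngp (1222) and Ltf (3450). Length moved with the fold change across all genes as well: Spearman's rho was 0.174 across 13966 genes, which share the same libraries and are not independent replicates. The 516 genes under 1000 bases had a median log2 fold change of -0.54, and the 13450 longer genes one of -0.05, with 9.69% and 6.44% called lower. Over the 10 members rho was 0.818, as a description. A trend with length was not particular to dilution, as rho was 0.213 across 14410 genes between 10000 T cells and 5 ng RNA. There 52.4% of the genes under 1000 bases and 26.5% of the longer genes were called lower in T cells. Erythroid markers moved too, at 2370.3 ± 225 CPM at 0.1 ng (n = 2) and 4091 ± 11.6 CPM at 5 ng (n = 3), with 4 of 8 called lower. The part of length in the members' values was not tested.

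**Figure D5:**
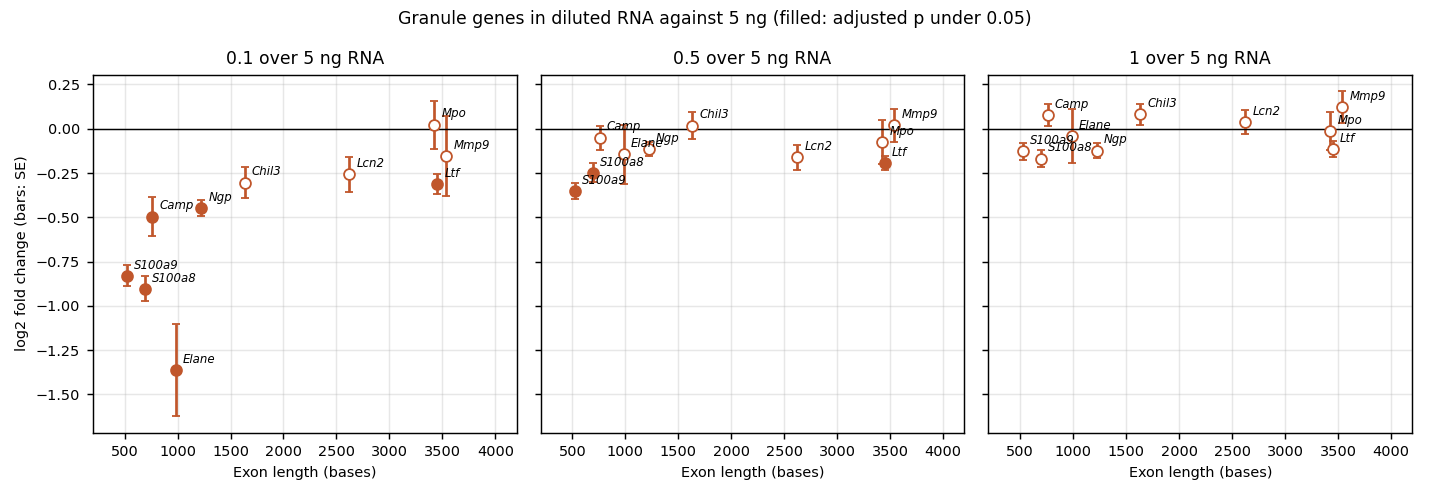
Log2 fold change of each gene at 0.1, 0.5 and 1 ng over 5 ng RNA against its exon length in bases, with bars of 1 SE and filled points for an adjusted p under 0.05 in edgeR's quasi-likelihood test. At 0.1 ng the 4 genes under 1000 bases lie between -1.36 and -0.50 and the 4 longest genes between -0.31 and 0.02.

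At 0.5 against 5 ng, 3 of 10 members were called lower and 0 higher, where 2.21% of 12558 genes were called lower. S100a9 had 760.5, 775 and 719 CPM at 0.5 ng, against 969.8, 941 and 957 CPM at 5 ng (log2 fold change -0.35, SE 0.0438; edgeR's quasi-likelihood test, adjusted p = 7.42e-05). S100a8 had 754, 776 and 672 CPM at 0.5 ng, against 925, 838 and 849.6 CPM at 5 ng (-0.25, SE 0.0538; edgeR's test, adjusted p = 0.00960), and Ltf had 1043, 1008 and 1005 CPM at 0.5 ng, against 1221, 1125 and 1139.8 CPM at 5 ng (-0.19, SE 0.0414; edgeR's test, adjusted p = 0.00924). These 3 genes were also called at 0.1 ng, with larger fold changes there. Without replicate 1 of 5 ng RNA, the highest of its group for S100a8 and Ltf, only S100a9 of the members was called, among 172 genes, with S100a8 at -0.21 and Ltf at -0.16.

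At 1 against 5 ng, 0 of 10 members were called by edgeR's quasi-likelihood test, where 0.0238% of 12616 genes were called in either direction. At an unadjusted p under 0.05 there were 4 members and 1317 genes, and DESeq2's Wald test called 107 genes and among them S100a8. S100a8 had 755, 791 and 782 CPM at 1 ng, against 925, 838 and 849.6 CPM at 5 ng. Its log2 fold change of -0.17 (SE 0.0488) had the lowest p-value of the members, with an adjusted p = 0.228 in edgeR's quasi-likelihood test. Without replicate 3 of 1 ng RNA, 45 genes were called and among them 2 members, both lower.

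The calls at 0.1 ng depended on the libraries of 5 ng RNA. Without replicate 1, 2 or 3 of 5 ng RNA, 0 members were called and at most 1 gene in all, and the log2 fold changes of S100a8 were then -0.83, -0.90 and -0.89. Without replicate 1 or 2 of 0.1 ng RNA, 8 and 9 members were called, where the remaining library is assumed to vary as those of 5 ng RNA do and 7869 and 8075 genes were called in all. A single fit over all 8 groups called 0 members at 0.1 ng, where it called 2816 genes, and 0 at 0.5 ng, where it called 22 genes.

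Genes whose levels followed the members most closely were sought among 11385 genes with a mean of at least 5 CPM, by Pearson's r between log2(CPM + 1) of the gene and the mean of log2(CPM + 1) over the members. Over all 23 libraries, which fall into the 2 materials, the 5 closest were Ighm (r = 0.997), Cxcr5 (0.994), Igkv5-39 (0.993), Igkv12-44 (0.993) and Ighg2c (0.993), which encode an immunoglobulin heavy chain, a chemokine receptor of B cells, 2 kappa variable segments and another heavy chain. Ighm had 837 CPM in 10000 T cells and 19639 CPM in 5 ng RNA as means of 3, and 8135 CPM in replicate 3 of 100 T cells.

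Within the 11 RNA libraries, which differ in input and depth, the closest included Tpt1 (r = 0.985), Tmsb4x (0.985), Rps24 (0.982) and Rpl9 (0.980), abundant transcripts of which Rps24 and Rpl9 encode ribosomal proteins. Tpt1 had a mean of 1031 CPM at 0.1 ng and 1977 CPM at 5 ng. The mean of the members did not stand for each of them in RNA. Its r was -0.140 with Mpo and 0.425 with Mmp9, and between 0.701 (Chil3) and 0.975 (S100a9) with the others. Within the 12 T cell libraries the 5 were Ighm (r = 0.976), Uty (0.973), Eif2s3y (0.972), Cxcr5 (0.972) and Serinc3 (0.961), and Uty and Eif2s3y are Y-linked. Without replicate 3 of 100 T cells the 5 were Vstm4 (r = 0.939), Trabd (0.883), Dop1b (0.879), Polr3d (0.877) and Ccdc130 (0.869), with none in common with the list that included it. In those 11 libraries the mean of the members had r = 0.836 with Mpo. With the other members its r lay between 0.110 (S100a9) and 0.596 (Elane). These 5 genes thus followed a mean that most members did not follow closely. The gene lists closest to the members thus differed by material and by that 1 library.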

How the data were processed

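RNA was measured in 23 mouse libraries, 12 from T cells and 11 from RNA. The authors deposited whole-number counts per gene symbol with no normalization, in 1 table. Per the submitters' processing notes, HISAT2 2.1.0, featureCounts and the build mm8 were used, with roles, version of the counter and strand setting not given in the sources used here. Totals ran from 1737067 to 7908638 counts per library, and 3 counts equal 0.379 to 1.73 CPM, which limits what a low level can show. Without molecular identifiers, intervals cover counting error only.

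Groups came from the labels, and 0 columns were left without a sample. Each pair of groups was compared in a fit of those libraries alone with edgeR 4.0.16 under R 4.3.3 (filterByExpr, TMM factors, quasi-likelihood test, p-values adjusted by Benjamini-Hochberg over every gene that passed the filter, threshold 0.05). The alternatives were DESeq2 1.42.0, DESeq2 size factors, library sizes alone, no filter, a replicate block, 1 fit over all groups and leaving out each replicate. The test was checked on simulated data. Exon lengths (22391 symbols, 99.6%) and coordinates came from GENCODE release M21 on GRCm38, which is not the build listed for the counts, so they serve for lengths and for sequence alone. Of the 10 members, 9 had a RefSeq promoter entry.

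The members and the gene lists were chosen with earlier results of these data known. All 10 members are named. Of each other list the 4 genes with the highest mean CPM in 5 ng RNA could be named, and of the genes most like the members the 5 with the highest Pearson's r over log2(CPM + 1) among genes with a mean of at least 5 CPM. A gene that this rule names is not reported here. No library was left out unless stated.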

Additional observations from a re-analysis of the deposited data

Results flagged for a closer look

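Effects of falling input were set side by side in the 2 materials where every library of the low input moved one way in T cells and the opposite way in RNA, as means of log2(CPM + 1), and the difference between the materials was not tested. Ltf was higher by 2.67 in 100 than in 10000 T cells and stood at -0.27 in 0.1 over 5 ng RNA. Camp stood at 2.28 in 100 over 10000 T cells and -0.45 in 0.1 over 5 ng RNA, and Chil3 at 2.17 and -0.26. These 3 means move with replicate 3 of 100 T cells, which held 638 CPM of Ltf, against 7.28 and 10.8 CPM in replicates 1 and 2, and without it they stood at 0.67 for Ltf, 0.68 for Camp and 0.64 for Chil3. Lcn2 stood at 1.06 in 500 over 10000 T cells and -0.16 in 0.5 over 5 ng RNA. Ngp stood at 0.47 in 1000 over 10000 T cells and -0.12 in 1 over 5 ng RNA. The T cell values of Lcn2 and Ngp rest on 6 to 18 counts per library. Neither gene was called in either of its comparisons, and Ngp overlapped between 1000 and 10000 T cells. All these genes were picked for moving in opposite ways, so the opposition is not a separate result.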

How the results depend on the processing

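Of 268 log2 fold changes of called members under the alternatives run, 214 kept their direction and their side of the threshold, 54 kept the direction and no longer passed, and 0 reversed. The 10 calls between 10000 T cells and 5 ng RNA held in all 12 alternatives. Camp, Lcn2 and Mmp9 passed the main filter there through 5 ng RNA, and the alternatives include a fit with no filter, which called 10062 genes. With 1 fit over all groups, the members called were 8 at 100 cells, where 836 genes were called in all, and 0 at each of 500 and 1000 cells, 0.1 ng and 0.5 ng, where 65, 24, 2816 and 22 genes were. This fit holds replicate 3 of 100 T cells and was not run without it. Its SE for S100a8 between 10000 T cells and 5 ng RNA was 0.912, against 0.0986 in the main fit. The part of that library in the lost calls was not tested. DESeq2's Wald test called 1 of 3 members with an adjusted p at 100 cells (348 genes in all), 1 of 8 at 500 cells (1036 genes), 0 of 2 at 1000 cells (784 genes) and 1 of 10 at 1 ng (107 genes). The 2 members called at each of 500 and 1000 cells were Mpo and Elane. Elane passed the filter at both inputs through the libraries of 10000 cells alone, so its calls there are not counted as results. The 268 values above include 11 of Elane at each of these inputs. With Elane included, leaving out 1 replicate gave 1 to 2 members at 500 cells (149 to 505 genes in all) and 0 to 2 at 1000 cells (181 to 411 genes). In RNA it gave 0 to 9 members for the 0.1 ng input (0 to 8075 genes), 1 to 4 for 0.5 ng (172 to 815 genes) and 0 to 2 for 1 ng (2 to 45 genes). The cause was not tested in these cases. Whether replicate numbers pair libraries was not given. Residual correlations of same-numbered libraries ran from -0.0214 to 0.0317, which cannot settle it in groups of 2 or 3 libraries. With the replicate block S100a8, S100a9 and Ngp were called at 0.1 ng, 3 members in place of 6, while Ltf, Camp and Elane were not. At that input 392 genes in place of 1572 were called in all, and no other count of members changed by over 1.5 times. On TMM-scaled totals the summed level was 3841 in place of 3975 CPM at 0.1 ng and 5676 in place of 5472 CPM at 5 ng. Of the 5 genes most like the members, other pseudocounts kept 3 over all libraries, and over T cells 3 remained with a pseudocount of 5 or with a minimum of 1 CPM. In the 11 T cell libraries other than replicate 3 of 100 cells, values of 0 to 41 counts for members other than Mpo limit what could be seen among cell inputs.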
